A study of Mus musculus with 6 samples.

Results

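The brush border hydrolases described here are 9 genes of 53379 in the count tables: the disaccharidase genes Sis, Lct, Mgam and Treh, the peptidase genes Anpep, Enpep, Dpp4 and Mme, and the alkaline phosphatase gene Alpi. They were chosen by name, with earlier results of these data known, and all 9 passed the filter on low counts. Their RNA was measured by RNA sequencing in Lgr5-EGFP-high cells of adult C57BL/6 mice, sorted after dissociation of the proximal part of the small intestine. There were 3 control libraries, from mice with the alleles Lgr5-EGFP-IRES-CreERT2 and Rosa-tdTomato, and 3 libraries labelled Klf5-KO, from mice that had Klf5fl/fl in addition to both. Both groups received 1 mg of tamoxifen per injection on 5 days, which activates the Cre recombinase, so the controls carry the same Cre, the same reporters and the same drug. Cre and EGFP are both expressed under the control of Lgr5, so recombination starts in Lgr5-expressing cells, and the sort, per the labels, was on EGFP. The labels do not say whether a library came from 1 mouse or from pooled mice, and the p-values therefore measure the spread between these libraries, which may be technical. The question put to the hydrolases is whether their transcripts differ between the libraries labelled Klf5-KO and the controls.

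The brush border is the carpet of microvilli on absorptive enterocytes. Its membrane carries hydrolases that finish digestion: disaccharidases split sugars and starch fragments, peptidases trim peptides to amino acids and short peptides, and intestinal alkaline phosphatase removes phosphate groups from lipids and bacterial endotoxin. The enzymes are made mostly by enterocytes on the villus, and crypt stem cells are not their main site. CDX2, HNF4 and GATA factors are known to act on genes of this kind, and Klf5, a zinc finger factor of the crypt, binds GC-rich and CACCC-type sequences.

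Upstream sequences of 4 members are shown because they form pairs of related enzymes whose transcripts differed in direction or in call: Sis with Mgam, and Anpep with Enpep. Each run holds the 250 bases before a RefSeq transcription start (GRCm38.p6, the same assembly as mm10), 5′ to 3′ on the strand of the gene. Capitals mark matches on either strand to the letters known for CDX factors, TTTAT, and to those for Kruppel-like factors, CACCC. The Sis run lies at chr3:72967864-72968113 on the minus strand, the Mgam run at chr6:40628581-40628830 on the plus strand, the Anpep run at chr7:79848211-79848460 on the minus strand and the Enpep run at chr3:129332750-129332999 on the minus strand.
Sis: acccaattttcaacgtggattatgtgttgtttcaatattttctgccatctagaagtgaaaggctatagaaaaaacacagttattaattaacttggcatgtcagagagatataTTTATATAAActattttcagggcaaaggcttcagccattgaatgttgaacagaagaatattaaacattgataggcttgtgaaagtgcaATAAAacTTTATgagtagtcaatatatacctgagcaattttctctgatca
Mgam: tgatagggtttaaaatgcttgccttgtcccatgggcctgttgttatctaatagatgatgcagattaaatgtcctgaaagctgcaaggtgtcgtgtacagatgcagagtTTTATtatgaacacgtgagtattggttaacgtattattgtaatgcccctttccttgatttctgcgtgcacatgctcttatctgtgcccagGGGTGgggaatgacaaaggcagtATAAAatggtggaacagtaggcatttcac
Anpep: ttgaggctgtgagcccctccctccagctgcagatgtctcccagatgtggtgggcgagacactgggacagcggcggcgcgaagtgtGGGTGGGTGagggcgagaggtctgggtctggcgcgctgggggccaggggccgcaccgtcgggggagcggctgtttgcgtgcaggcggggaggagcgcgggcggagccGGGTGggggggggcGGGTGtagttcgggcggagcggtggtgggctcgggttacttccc
Enpep: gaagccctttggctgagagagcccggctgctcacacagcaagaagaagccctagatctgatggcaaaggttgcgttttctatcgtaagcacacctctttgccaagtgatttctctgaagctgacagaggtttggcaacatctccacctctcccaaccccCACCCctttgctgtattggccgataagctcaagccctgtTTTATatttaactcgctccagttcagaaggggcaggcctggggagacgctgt
The Sis run held 4 CDX matches and no Kruppel-like match, and had 31.6% G and C. The Anpep run had 72.8% G and C, 4 Kruppel-like matches, of which 1 pair shares a base, and no match to the CDX letters. The start used for Anpep lies 12849 bases inside the gene model on which reads were counted, so it is one start among those the model spans. Mgam held 2 CDX matches and 1 Kruppel-like match, and Enpep 1 of each. Over the 11 windows that the table gives for the 9 genes, 6 held the CDX letters and 8 the Kruppel-like letters. Of all 32851 windows of this length, 37.3% and 52% held them. The GATA letters GATAA, on either strand, were in 4 of the 11 windows against 22.6% of all windows, and the HNF4 letters CAAAG in 8 against 48.6%. Mme gave 3 of the 11 windows, in part overlapping, with starts 53674 to 54558 bases inside its gene model. By gene, 6 of 9 held the CDX letters, 7 the Kruppel-like, 4 the GATA and 7 the HNF4 letters. The CDX letters overlap TATA-box sequence and can overlap GATAA, and a match is a description of the letters only.

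The libraries held 61563625 to 77666540 counts. The share of counts from mitochondrial genes was 1.97 to 2.69% in the controls and 3.00 to 3.36% in the Klf5-KO-labelled libraries, without overlap, and its part in the results was not tested. With mitochondrial and rRNA-like genes removed from the counts, the enzyme genes still gave 4 calls higher and 1 lower. Klf5 itself went against the labels: its normalised read count (CPM, the gene's count scaled to a common library size after TMM adjustment) was 480, 512 and 547 in the controls against 880, 918 and 877 in the Klf5-KO-labelled libraries. The count sums all exons and cannot show which were deleted, so all directions given are those of the Klf5-KO label, not of a measured loss of Klf5. The sorted cells carried the markers of their label, with Lgr5 at 128 to 163 CPM in the controls against 81.2 to 96.8 CPM in the Klf5-KO-labelled libraries, and all 6 stem cell markers examined were called lower. Summed Paneth markers set control replicate 3 apart, at 16687 CPM against 1448 and 1722 CPM in the other controls and 7603 to 9574 CPM in the Klf5-KO-labelled libraries. Of all 19339 genes tested, 25.8% were called at an adjusted p under 0.05 by edgeR's quasi-likelihood test (13.3% higher and 12.5% lower), and that share is the background for the counts below.

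Of the 9 hydrolase genes, 4 were called higher (Sis, Mme, Anpep and Dpp4), 1 was called lower (Enpep), and 4 were not called (Mgam, Lct, Treh and Alpi). Sis rose 4.00-fold, Mme 3.62-fold, Anpep 2.07-fold and Dpp4 1.38-fold, and Enpep fell to 0.679 of the control level. The disaccharidases had 1 call in 4 genes and the peptidases 4 calls in 4 genes, in both directions. In 5 of the 9 the groups did not overlap, as in 43.2% of all genes tested. The median log2 fold change was 0.47 over the 9 members, 0.17 over the disaccharidases and 0.76 over the peptidases, against −0.0090 over all genes tested. In bulk RNA, more cells of a type in the sort and more RNA per cell cannot be told apart.

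**Figure D1:**
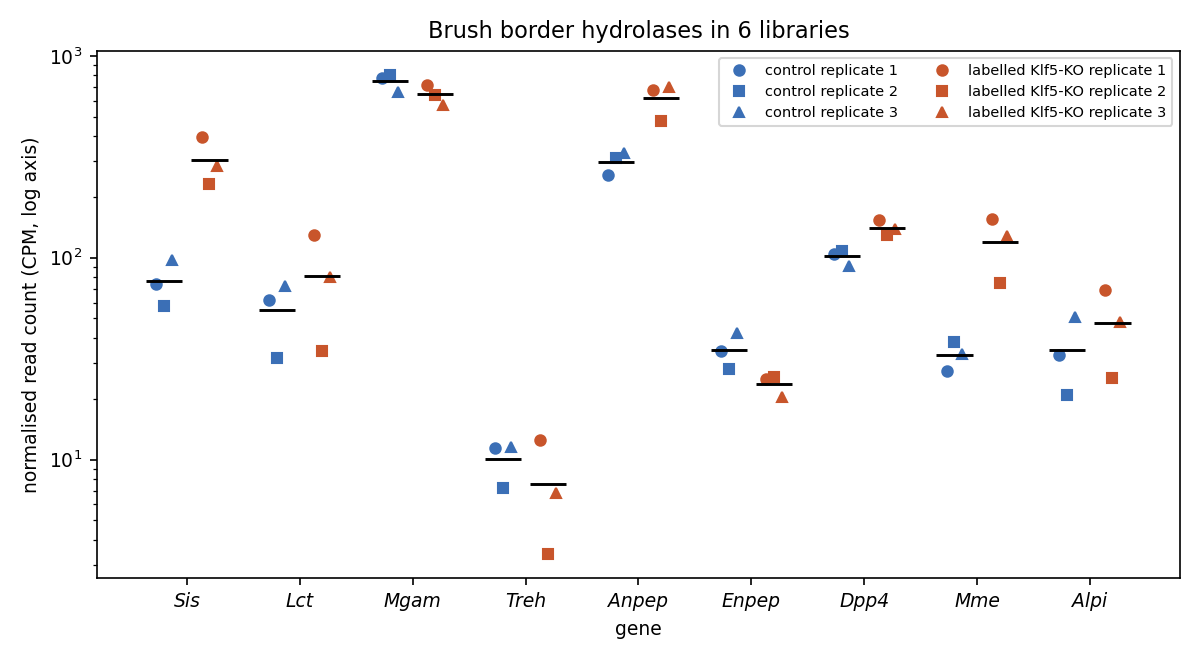
Normalised read count (CPM, log axis) of each hydrolase gene in the 3 control libraries (blue) and the 3 Klf5-KO-labelled libraries (orange), with the mean of each group as a bar and the replicate shown by the symbol. Sis, Anpep, Dpp4 and Mme lie higher without overlap, and Enpep lower without overlap. In Lct, Treh and Alpi, Klf5-KO replicate 2 lies far under Klf5-KO replicate 1.

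Sis encodes sucrase-isomaltase, which splits sucrose and the branch points of starch (chromosome 3, 72888557 to 72967863, 48 exon blocks). It stood at 74.0, 57.9 and 97.1 CPM in control replicates 1, 2 and 3 and at 398, 233 and 284 CPM in Klf5-KO replicates 1, 2 and 3. The lowest Klf5-KO-labelled library was above the highest control. The log2 fold change was 2.00 (SE 0.23, 95% interval 1.49 to 2.51, adjusted p = 3.5e-04, edgeR). The call held in each of the 16 alternative analyses, with log2 fold changes of 1.76 to 2.38.

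Mgam, maltase-glucoamylase, is the paralog of sucrase-isomaltase that releases glucose from starch fragments (chromosome 6, 40628831 to 40769123, 65 exon blocks). It stood at 778, 807 and 663 CPM in the controls against 719, 643 and 569 CPM in the Klf5-KO-labelled libraries. The groups overlapped, and the log2 fold change of Mgam was −0.22 (SE 0.13, 95% interval −0.50 to 0.06, adjusted p = 0.23, edgeR). The interval leaves out a rise of the size seen for Sis. Per library, the RPKM level (CPM per kilobase of exon) of Mgam was 9.02, 11.9 and 5.85 times that of Sis in the controls and 1.55, 2.37 and 1.72 times in the Klf5-KO-labelled libraries. The gene next to Mgam on the same strand, Mgam2-ps (40778711 to 40855600), was named after its values were seen. It went from 119, 94.1 and 97.2 CPM to 271, 201 and 232 CPM (2.27-fold, adjusted p = 3.2e-04, edgeR). Reads that match both genes could go uncounted, so the share of each is uncertain.

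Lct, lactase, splits milk sugar and is highest in suckling animals (chromosome 1, 128284756 to 128328318). It stood at 61.8, 31.8 and 72.2 CPM in the controls against 129, 34.5 and 80.1 CPM in the Klf5-KO-labelled libraries. Klf5-KO replicate 2 lay within the control range, so the groups overlapped. Its log2 fold change of 0.55 was not called (SE 0.42, 95% interval −0.39 to 1.5, adjusted p = 0.37, edgeR). It was 0.06 without Klf5-KO replicate 1, 0.27 without control replicate 2 and 0.94 without Klf5-KO replicate 2. It passed with no low-count filter (adjusted p = 0.020) and without control replicate 3 and Klf5-KO replicate 2 together (1.17, adjusted p = 0.025, edgeR), a setting chosen after seeing the data.

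Treh encodes trehalase, which splits the insect and fungal sugar trehalose (chromosome 9, 44673233 to 44686305), and was the member with the fewest counts. It stood at 11.4, 7.25 and 11.5 CPM in the controls against 12.5, 3.41 and 6.82 CPM in the Klf5-KO-labelled libraries. The highest and the lowest of the 6 values were both in Klf5-KO-labelled libraries. The log2 fold change was −0.40 (SE 0.38, 95% interval −1.27 to 0.46, adjusted p = 0.48, edgeR), −0.96 without Klf5-KO replicate 1 and −0.03 without Klf5-KO replicate 2. Its direction turned without control replicate 3 and Klf5-KO replicate 2 together (0.06, adjusted p = 0.90, edgeR). The lowest count behind these values was 219, with an exact Poisson 95% interval of 191 to 250 that covers counting error only, so the spread between libraries was far wider than the counting error.

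The peptidases were all called. Anpep, aminopeptidase N, removes neutral amino acids from the ends of peptides (chromosome 7, 79821803 to 79861059). It stood at 256, 312 and 331 CPM in the controls against 676, 478 and 704 CPM in the Klf5-KO-labelled libraries, without overlap. The log2 fold change was 1.05 (SE 0.16, 95% interval 0.69 to 1.41, adjusted p = 0.0018, edgeR).

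Mme encodes neprilysin, a zinc endopeptidase (chromosome 3, 63241537 to 63386030). It stood at 27.6, 38.2 and 33.4 CPM in the controls against 156, 74.9 and 128 CPM in the Klf5-KO-labelled libraries. Its lowest Klf5-KO value, in replicate 2, was still above every control. The log2 fold change was 1.85 (SE 0.24, 95% interval 1.32 to 2.39, adjusted p = 6.9e-04, edgeR).

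Dpp4, dipeptidyl peptidase 4, cuts dipeptides from peptides with proline or alanine next to the end (chromosome 2, 62330073 to 62412231). It was the member with the narrowest spread, at 105, 108 and 91.4 CPM in the controls against 153, 129 and 139 CPM in the Klf5-KO-labelled libraries. The groups lay apart, and Dpp4 rose by 0.47 on the log2 scale (SE 0.10, 95% interval 0.24 to 0.69, adjusted p = 0.0086, edgeR). The calls of Anpep, Mme and Dpp4 held in each of the 16 alternatives, with adjusted p-values of at most 0.011, 0.0052 and 0.037.

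Enpep, aminopeptidase A, which removes acidic amino acids, moved the other way (chromosome 3, 129269175 to 129332720). It stood at 34.3, 28.2 and 42.3 CPM in the controls against 25.1, 25.7 and 20.3 CPM in the Klf5-KO-labelled libraries. The groups did not overlap, but the highest Klf5-KO value and the lowest control value lay close together. The log2 fold change was −0.56 (SE 0.15, 95% interval −0.90 to −0.22, adjusted p = 0.026, edgeR). The call was lost in 7 of 16 alternatives, with adjusted p-values of 0.0501 and 0.058 on leaving out control replicate 1 or 3, and of 0.065, 0.051 and 0.096 on leaving out Klf5-KO replicate 1, 2 or 3. It was also lost with the replicate number as a block (0.055) and without control replicate 3 and Klf5-KO replicate 2 together (0.052). The RPKM level of Anpep was 8.48, 12.6 and 8.90 times that of Enpep in the controls and 30.7, 21.2 and 39.4 times in the Klf5-KO-labelled libraries.

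Alpi encodes intestinal alkaline phosphatase (chromosome 1, 87098002 to 87101606). It stood at 33.0, 21.0 and 51.0 CPM in the controls against 69.4, 25.2 and 48.2 CPM in the Klf5-KO-labelled libraries. The values of the groups were interleaved, and the log2 fold change was 0.45 (SE 0.37, 95% interval −0.38 to 1.27, adjusted p = 0.41, edgeR). It moved from 0.08 without Klf5-KO replicate 1 and 0.18 without control replicate 2 to 0.82 without control replicate 3 and 0.77 without Klf5-KO replicate 2. Of 16 alternatives 1 called it, the one without control replicate 3 and Klf5-KO replicate 2 together (1.13, SE 0.22, adjusted p = 0.0090, edgeR). Akp3, the related alkaline phosphatase gene on the same stretch of chromosome 1, stood at 8.86, 6.80 and 11.6 CPM in the controls against 17.8, 3.71 and 11.7 CPM in the Klf5-KO-labelled libraries (adjusted p = 0.67, edgeR). Reads shared between these related genes could go uncounted.

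**Figure D2:**
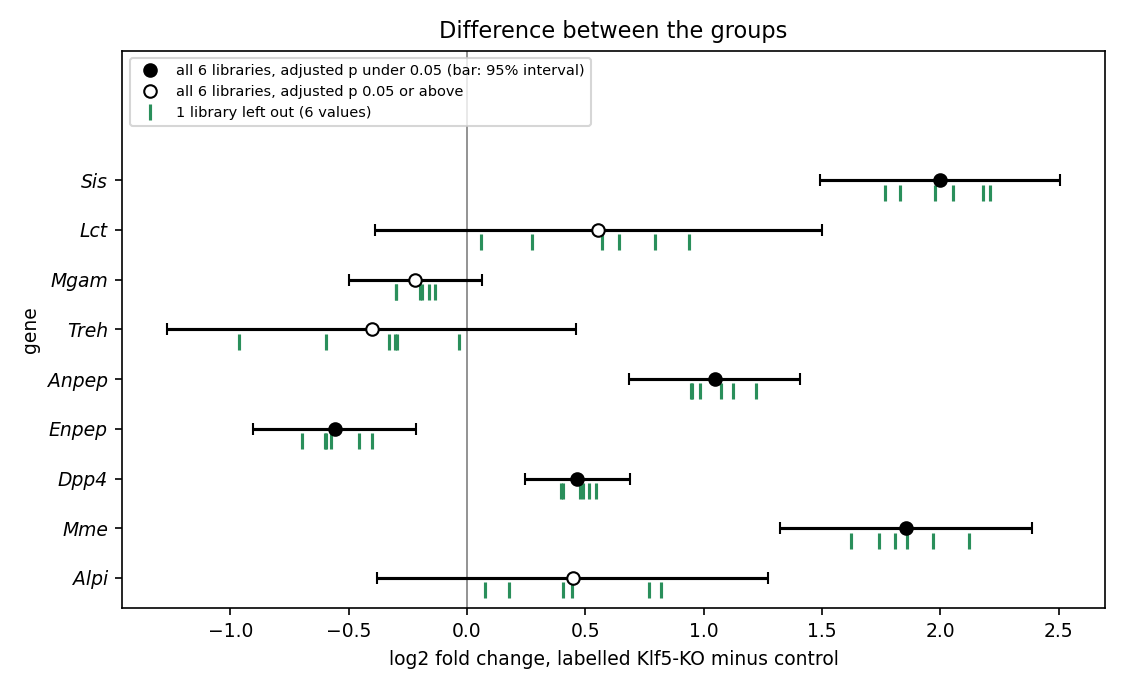
Log2 fold change of each hydrolase gene, Klf5-KO-labelled libraries minus controls, with its 95% interval (circle and bar, filled where the adjusted p is under 0.05), and below it the 6 values with 1 library left out (green ticks). No member crosses 0 in its 6 ticks, and the widest intervals are those of Lct, Treh and Alpi.

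The members differed in how evenly the libraries of a group carried them. Within the Klf5-KO-labelled libraries, the coefficient of variation of the CPM was 8.72% for Dpp4, 11.6% for Mgam, 12.4% for Enpep, 19.9% for Anpep, 27.8% for Sis, 34.4% for Mme, 46.4% for Alpi, 58.2% for Lct and 60.6% for Treh. In the controls it ran from 8.83% for Dpp4 to 37.9% for Lct and 43.2% for Alpi, with Treh at 24.1%. Klf5-KO replicate 2 was the lowest of its group for 7 of the 9 members, with Mgam and Enpep the exceptions, and Klf5-KO replicate 1 was the highest for 7. Within that group the order was alike in other enterocyte genes: of 23 tested, 19 were lowest in Klf5-KO replicate 2 and 22 highest in Klf5-KO replicate 1. Among the controls, 18 of the 23 were lowest in control replicate 2 and 18 highest in control replicate 3. The 9 members were less uniform there. In control replicate 2, 5 were lowest and 3 highest, and in control replicate 3, 6 were highest and 2 lowest.

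Levels of different genes are compared per exon length, as RPKM. In the controls Mgam was at 86.1 ± 8.7 RPKM and Anpep at 72.5 ± 9.5 RPKM (SD, n = 3), and their ranges overlapped. Dpp4 (16.1 ± 1.4 RPKM), Alpi (15.0 ± 6.5), Sis (10.2 ± 2.6), Lct (8.63 ± 3.27) and Enpep (7.43 ± 1.51) followed, each overlapping the next in range. Treh (4.90 ± 1.2 RPKM) and Mme (2.86 ± 0.46) were lowest, each apart from its neighbour. In the Klf5-KO-labelled libraries Anpep was first, at 150 ± 29.8 RPKM, then Mgam at 74.0 ± 8.6 RPKM and Sis at 40.9 ± 11.4 RPKM, each apart from the next. Dpp4 (22.2 ± 1.9 RPKM), Alpi (20.4 ± 9.5), Lct (12.7 ± 7.4) and Mme (10.4 ± 3.6) overlapped in turn, with Enpep (5.04 ± 0.62) and Treh (3.70 ± 2.24) last. Mgam made up 41.2, 42.2 and 32.5% of the summed RPKM of the 9 genes in the controls and 20.7, 27.3 and 18.8% in the Klf5-KO-labelled libraries. For Sis the shares were 4.57, 3.53 and 5.55% and then 13.4, 11.5 and 11%.

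**Figure D3:**
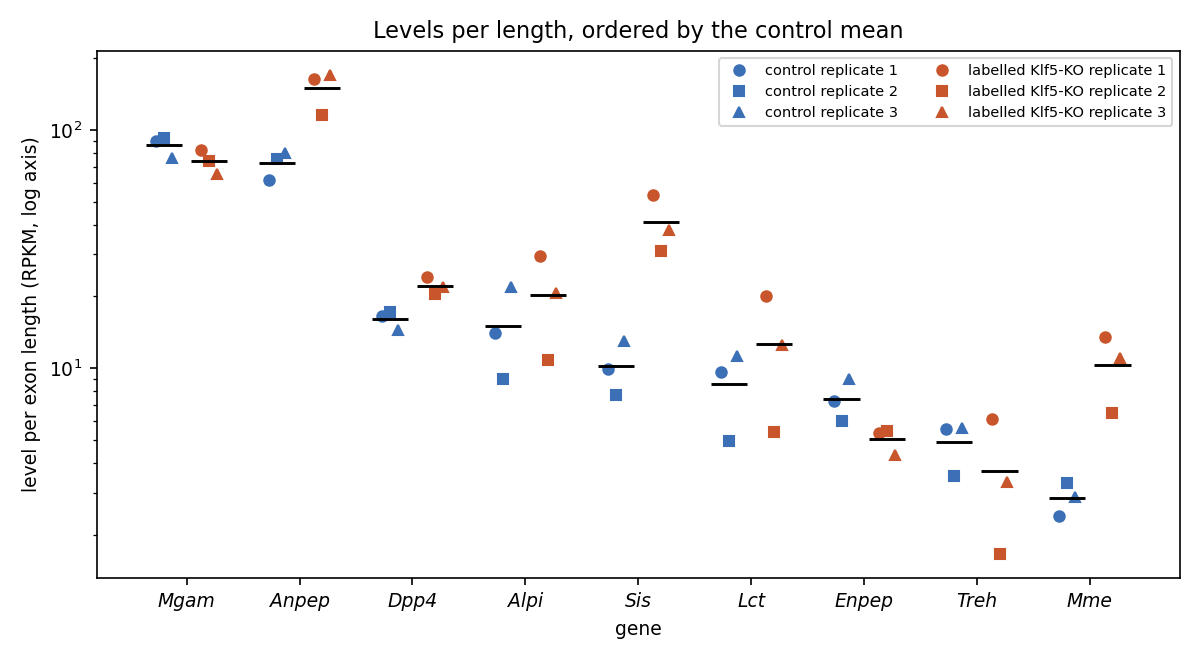
Level per exon length (RPKM, log axis) of the hydrolase genes, ordered by the control mean, in the controls (blue) and the Klf5-KO-labelled libraries (orange), with group means as bars. Mgam and Anpep stand above the other 7 genes in the controls, and Sis and Mme show the widest gaps between the groups.

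The classes were also summed. The 4 disaccharidases together stood at 114, 109 and 106 RPKM in the controls and at 162, 112 and 119 RPKM in the Klf5-KO-labelled libraries, where the rise of Sis stood beside a lower mean of Mgam. The 4 peptidases together stood at 88.1, 102 and 106 RPKM in the controls and at 207, 148 and 208 RPKM in the Klf5-KO-labelled libraries, most of it Anpep. The sums are descriptions with no test.

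**Figure D4:**
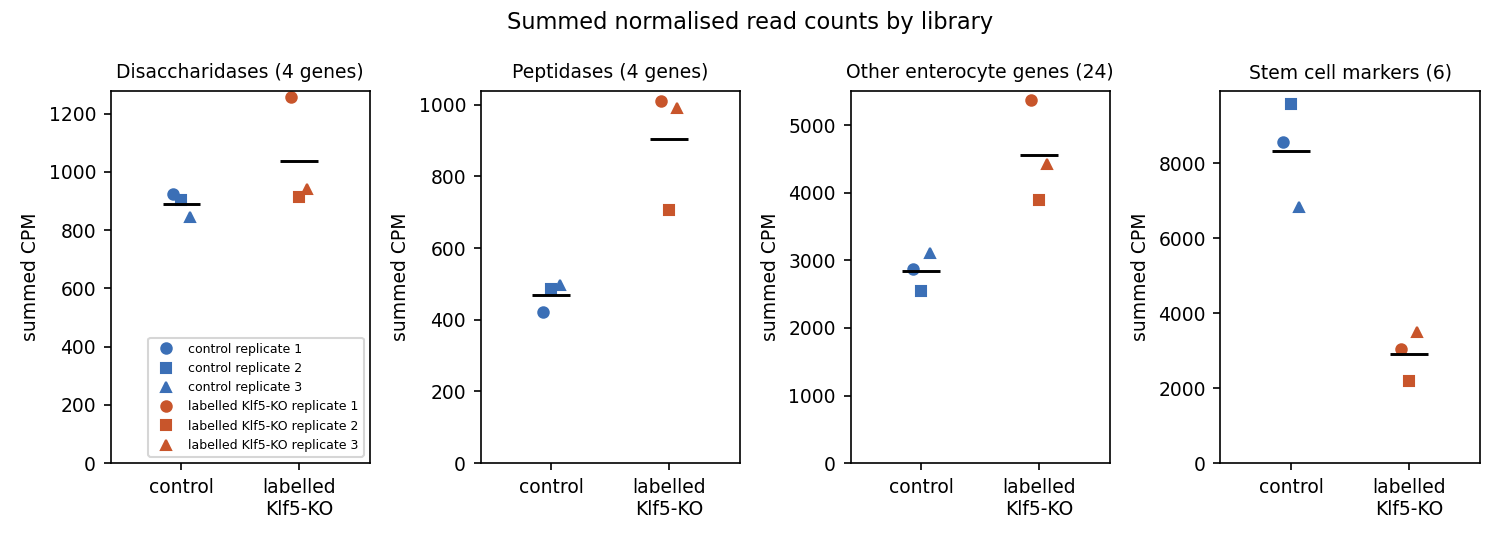
Summed CPM by library of the 4 disaccharidase genes, the 4 peptidase genes, 24 other enterocyte genes and 6 stem cell markers, in the controls (blue) and the Klf5-KO-labelled libraries (orange), with group means as bars. The peptidase and enterocyte sums are higher and the stem cell sum lower in every Klf5-KO-labelled library, and the disaccharidase sums overlap in range.

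Other hydrolases of the brush border were mostly not called. Of 16 listed, 15 were matched and 14 tested: none was called higher by edgeR, 4 were called lower and 10 were not called, with a median log2 fold change of −0.05. Over all genes tested, 25.8% were called, 13.3% higher and 12.5% lower. The unmatched symbol was Mgam2, and Mgam2-ps, described above and called higher, was not among those counted. At an unadjusted p under 0.05 1 was higher (Asah2), and DESeq2 and limma-voom each called 0 higher and 4 lower. Xpnpep2, a proline-specific aminopeptidase, fell from 6.61 ± 0.86 to 1.35 ± 0.25 CPM (SD, n = 3; log2 fold change −2.29, adjusted p = 8.8e-05, edgeR). The phospholipase gene Plb1 fell by 2.09, the alkaline sphingomyelinase gene Enpp7 by 1.56 and the phosphatase gene Alppl2 by 2.06 on the log2 scale. Plb1 and Alppl2 were at low levels, with means of 1.01 and 0.417 CPM in the controls, and the Alppl2 call was lost without Klf5-KO replicate 3 (adjusted p = 0.055). Asah2, a neutral ceramidase gene that was not called (adjusted p = 0.075, edgeR), passed without Klf5-KO replicate 2 (0.029), with no low-count filter (2.4e-04) and with the replicate number as a block (0.033). The peptidase genes Ace, Ggt1, Mep1a, Naaladl1 and Dpep1 had log2 fold changes of 0.14, −0.16, −0.36, 0.34 and −0.42, none of them called. Without control replicate 3 and Klf5-KO replicate 2 together, 7 of the list were called, 4 of them higher. Folh1 was at 0 in all 6 libraries, where a floor of 3 counts is 0.0389 to 0.0484 CPM.

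Absorptive genes outside the hydrolases were called in both directions, more of them higher. Of 24 listed 23 were tested, and 11 were called higher, 1 lower and 11 not at all, with a median log2 fold change of 0.64. DESeq2 called 11 higher and 3 lower, limma-voom 11 and 1, and edgeR 15 and 3 with no low-count filter and 8 and 2 without Klf5-KO replicate 1. The amino acid transporter gene Slc6a19 (log2 fold change −0.54, adjusted p = 0.069, edgeR) was called lower by DESeq2 and in both of these edgeR settings. The largest changes among the called were those of Apoc3 (log2 fold change 1.92), Krt20 (1.34), Mttp (1.30), Fabp2 (1.28) and Apob (1.26), genes of lipoprotein assembly, fatty acid binding and the villus cytoskeleton, and the one fall, Prap1 (−1.99). The summed CPM of the list was 2542 to 3112 in the controls and 3896 to 5370 in the Klf5-KO-labelled libraries. It was higher without overlap, as were the hydrolase genes Sis, Mme, Anpep and Dpp4. Among the controls the sum was lowest in replicate 2, where Sis was lowest too but Mme and Dpp4 were highest. The part of the list in the rise of the hydrolases was not tested. Within the list Apoa1, Rbp2 and Cdhr2 were not called (log2 fold changes 0.19, 0.65 and −0.09).

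Some members are also made outside the epithelium: Dpp4 and Mme in lymphocytes and stromal cells, Anpep in myeloid cells and fibroblasts, Enpep in pericytes. None of the 6 tested immune markers was called by edgeR or limma-voom, 1 (Ptprc, the pan-leukocyte gene) was higher at an unadjusted p under 0.05 and by 1 other tool, DESeq2, and their sum over 8 genes was 22.5 to 41.3 CPM in the controls against 27.5 to 29.0 CPM in the Klf5-KO-labelled libraries. The 6 fibroblast markers summed to 0.426 to 0.710 and 0.818 to 1.28 CPM, and Dcn and Lum were at or near 0. Of 2 tested, 1 was called higher, the collagen gene Col1a2. It went from 0.0434 to 0.643 CPM (adjusted p = 7.9e-04, edgeR), in the same direction as Anpep, Mme and Dpp4. The other, Col1a1, was not called, with means of 0.492 and 0.331 CPM. The 6 endothelial and pericyte markers summed to 3.63 to 5.08 and 1.88 to 2.85 CPM, with 1 of 3 tested higher (Rgs5) and 1 lower. The lower one, the pericyte receptor gene Pdgfrb, went from 2.46 to 0.467 CPM (adjusted p = 3.0e-04, edgeR), in the same direction as Enpep. Rgs5, of the same endothelial and pericyte list, went the other way, from 0.260 to 0.692 CPM (adjusted p = 0.011, edgeR). What part such cells had in the fall of Enpep or in the rise of Anpep, Mme and Dpp4 was not tested. Exocrine pancreas markers summed to 2.17 to 3.86 and 2.00 to 2.13 CPM, with Prss1, Cpa1 and Amy2a5 at 0 in every library. The 1 tested, Cela1, was not called by edgeR, DESeq2 or limma-voom, and was lower at an unadjusted p under 0.05. Of the secretory lists, 3 of 5 goblet markers were lower (2 by DESeq2, 3 by limma-voom), 3 of 4 enteroendocrine markers were lower (3 and 2), 1 of 3 tuft markers was higher (2 and 1), and none of 6 Paneth markers was called by edgeR, DESeq2 or limma-voom, with 0 at an unadjusted p under 0.05.

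Transcription factors known to act on enterocyte genes moved in both directions. Of 12 listed, 5 were called higher, 3 lower and 4 not at all, Gata4 and Klf4 among them, with a median log2 fold change of 0.17. Cdx1 fell from 228 ± 14.7 to 50.0 ± 0.8 CPM (SD, n = 3; log2 fold change −2.19, SE 0.08, adjusted p = 1.3e-06, edgeR), whereas Cdx2, the related factor that activates Sis, rose by 0.34. The nuclear receptor genes Hnf4a and Hnf4g moved apart, from 821 ± 95.3 to 442 ± 57.7 CPM and from 55.8 ± 7.9 to 149 ± 16.5 CPM (log2 fold changes −0.89 and 1.42). Elf3 fell by 0.76 on the log2 scale. Prdm1 encodes BLIMP1, a factor of the suckling intestine whose loss there brings on Sis early, and it rose from 2.94 ± 0.89 to 9.92 ± 1.70 CPM (log2 fold change 1.76, adjusted p = 9.0e-04, edgeR). Maf and Gata6 rose by 1.14 and 0.32. Cdx2 was no longer called on leaving out control replicate 1 (adjusted p = 0.091), Klf5-KO replicate 2 (0.074), Klf5-KO replicate 3 (0.077) or the pair of control replicate 3 and Klf5-KO replicate 2 (0.075). The Gata6 call was lost without control replicate 1 or 2 or Klf5-KO replicate 1 or 3 (0.076 to 0.085), and the Maf call without Klf5-KO replicate 1 (0.052).

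**Figure D5:**
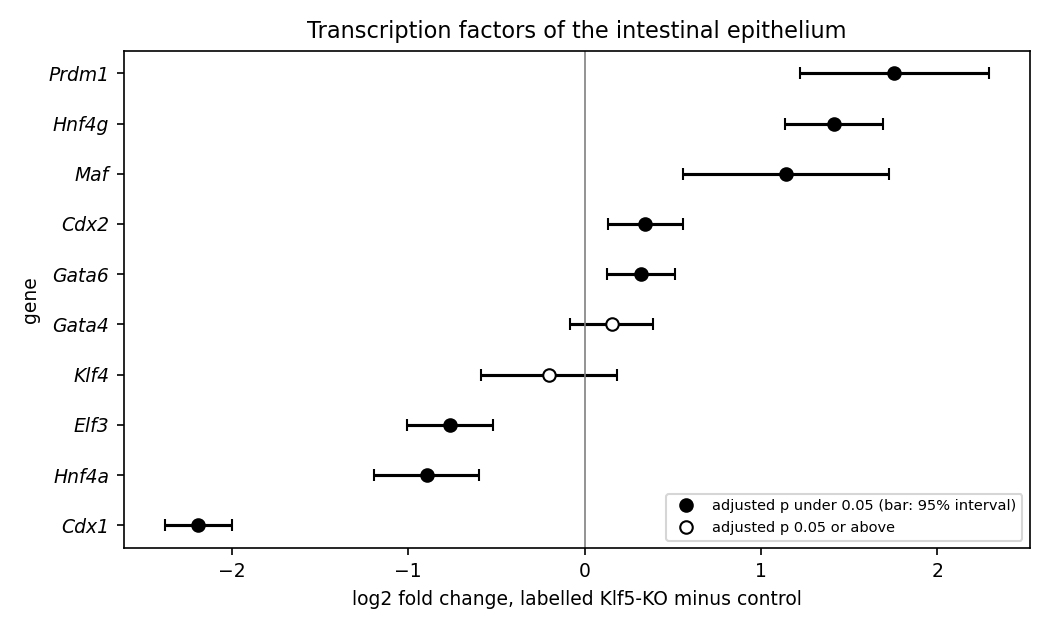
Log2 fold change of 10 of the 12 intestinal transcription factor genes, Klf5-KO-labelled libraries minus controls, with 95% intervals, filled where the adjusted p is under 0.05. Prdm1 and Hnf4g lie farthest above 0 and Cdx1 farthest below, and Gata4 and Klf4 were not called.

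The genes whose profiles over the 6 libraries were most like that of Sis were sought among 10056 named genes averaging 5 CPM or more, by the root-mean-square difference of centred log2 CPM. They were Creb3l3 (0.16 on the log2 scale), Glipr1 (0.18), Nox1 (0.19), Prdm1 (0.19) and Fmo5 (0.21). The average was over all 6 libraries. Glipr1 and Prdm1 had means of 2.54 and 2.94 CPM in the controls and 9.27 and 9.92 CPM in the Klf5-KO-labelled libraries. Both therefore reached 5 CPM only through the group where they were high. Creb3l3, an intestinal and hepatic transcription factor, had a mean of 15.7 CPM in the controls against 65.8 CPM in the Klf5-KO-labelled libraries, and the flavin monooxygenase gene Fmo5 17.2 and 76.6 CPM. For Enpep the nearest were Tnnt2 (0.079), Prox1 (0.080), Il4ra (0.10), Ttc39a (0.10) and Baiap2 (0.11). Prox1, an enteroendocrine-lineage factor in the crypt, had a mean of 8.45 CPM in the controls against 5.37 CPM in the Klf5-KO-labelled libraries. The measure includes the difference between the groups.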

How the data were processed

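RNA of 6 libraries was counted per gene. Per the file headers, the authors ran featureCounts 1.4.3-p1, set to reverse strand, against the GENCODE vM16 annotation, with no option for read pairs or for reads matching several places. The deposited counts are whole numbers, not normalized. Per the submitters' processing notes, STAR 2.5.2a, mm10 and DESeq2 1.18.1 were used. Symbols came from GENCODE vM21 (53274 of 53379 IDs matched), and upstream sequences from RefSeq (GRCm38.p6).

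The test was the quasi-likelihood F test of edgeR 4.0.16 (R 4.3.3) after filterByExpr, which left 19339 genes, and TMM scaling, with Benjamini-Hochberg adjustment over all of them and a threshold of 0.05. CPM and RPKM use TMM-scaled library sizes. The alternatives were RLE and upper-quartile scaling, no filter or CPM above 1 in 3 libraries, DESeq2 1.42.0, limma-voom (limma 3.58.1), robust dispersion, removal of mitochondrial and rRNA-like genes, a block for the replicate number, leaving out each library, and, added after seeing the data, leaving out control replicate 3 and Klf5-KO replicate 2 together. In simulated data for this comparison, 200 of 19339 genes were changed, and 19039 genes passed the filter on the simulated counts. Of the changed genes that passed, the share called was 31.2% for a 1.5-fold change, 62% for 2-fold, 89.6% for 4-fold and 100% for 8-fold. In the data 4994 genes were called, so the adjustment of p differs and these shares need not hold there. Libraries of a group differed beyond sampling noise.

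The members, lists and tests were chosen with earlier results of these data known. The rule for named genes took all 9 members, Klf5, the listed transcription factors, up to 6 called genes with the largest change in the lists of other hydrolases and enterocyte genes, any called the opposite way, and the 5 genes most like Sis and most like Enpep in profile. Mgam2-ps, and genes that were not called but are named with values, were chosen after their values were seen. Some genes of the lists enter the counts and are not reported here by name.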

Additional observations from a re-analysis of the deposited data

How the results depend on the processing

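Of 16 alternatives, 15 were planned and none of these turned a member's direction. The other, added after seeing the data, leaves out control replicate 3 and Klf5-KO replicate 2. These were the highest control and the lowest Klf5-KO-labelled library for most enterocyte genes. By its construction the setting therefore widens the gap for genes that rose and had that order of libraries. It narrowed the gap of Enpep (log2 fold change −0.45 against −0.56) and barely moved Dpp4 (0.46 against 0.47). It turned Treh (log2 fold change 0.061, adjusted p = 0.90, edgeR; −0.96 to −0.034 with 1 library left out), called Lct (1.17, 0.025) and Alpi (1.13, 0.0090), left Enpep uncalled (−0.45, 0.052), so that 0 members were called lower, and called 7 of the other brush border hydrolases against 4. Sis, Mme, Anpep and Dpp4 kept their calls in all 16, and Enpep in 9. Beyond the values given with each gene, the count of members called lower was 0 with the replicate number as a block and ranged from 0 to 1 with 1 library left out. Of the other brush border hydrolases, 2 were called where CPM above 1 was required in 3 libraries, since that filter left Plb1 and Alppl2 untested. With 1 library left out, the count over all genes ranged from 3072 to 5404, with 1605 to 2740 higher and 1467 to 2664 lower. The largest losses were without Klf5-KO replicate 1 (3072) and Klf5-KO replicate 3 (3309), and control replicate 2 lowered the count of higher genes to 1689 and Klf5-KO replicate 2 that of lower genes to 1606.

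Libraries with the same replicate number did not deviate together (correlations of −0.0095, 0.0055 and −0.041 across genes), and the file of Klf5-KO replicate 3 names another number in its header, so the numbers were not taken as pairs. With the replicate number as a block, 4374 genes were called against 4994 without it, and of the members only the Enpep call was lost (log2 fold change −0.55, adjusted p = 0.055, edgeR). TPM in place of RPKM left all 9 members in the same order in each group. No scaling moved the median of all genes by more than 0.1. The lowest member count was 219, so counting error was small beside the spread between libraries.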
